A study of Mus musculus with 6 samples.

Results

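The genes described here are 10 genes of leukocyte adhesion and of the NF-kB response, measured by RNA-seq in endothelial cells sorted from mouse brain. They were taken by symbol (Icam1, Icam2, Vcam1, Sele, Selp, Ackr1, Ccl2, Tnfrsf1a, Nfkbia and Tnfaip3), and 10 of 10 were found among the 54532 genes of the table. All mice carried Df(h22q11)/+, a heterozygous deletion that models 22q11.2 deletion syndrome, and were 12 to 16 weeks old. The untreated group (3 libraries, here F_1, F_2 and M_1) ate irradiated base chow for 4 weeks. The bezafibrate group (3 libraries, F_1, M_1 and M_2) ate chow enriched with 0.5% bezafibrate, also for 4 weeks. Bezafibrate is a lipid-lowering drug that activates PPAR nuclear receptors. F and M stand for female and male, and sets of 3 values are given in the order just listed for each group. Each library came from 3 pooled brains of like sex and chow, so the replicates are pools and not single animals, and wild-type mice were not analysed here. Cells were gated as live, CD31-positive, CD45-negative and PDGFRb-negative.

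Endothelial cells recruit leukocytes in steps. Selectins (Sele, Selp) slow the passing cell, chemokines such as Ccl2 activate its integrins, and the immunoglobulin-type ligands Icam1, Icam2 and Vcam1 hold it. TNF acts through its receptor Tnfrsf1a to free NF-kB from the inhibitor IkB-alpha, which Nfkbia encodes. NF-kB then drives transcription of Icam1, Vcam1, Sele and Ccl2, and also of Nfkbia and Tnfaip3, which shut the signal off again. In resting brain endothelium the inducible adhesion molecules are known to be sparse.

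Matching by symbol to RefSeq promoters of GRCm38.p6 (250 bases before to 50 after a start site) gave windows for 7 of the 10 genes, 8 windows in all, since Tnfaip3 has more than 1 start. Vcam1, Icam2 and Ccl2 had no entry. Both strands were searched for the NF-kB consensus, a degenerate motif of 10 bases, and for the TATA box TATAAA, and no 2 matches overlapped within the windows printed here. The sequences below are those of the feedback inhibitors Nfkbia and Tnfaip3, which held the NF-kB consensus, and of Icam1 and Sele, adhesion genes known as NF-kB targets in which these exact letters were not in the window. Capitals mark the matches.
Nfkbia: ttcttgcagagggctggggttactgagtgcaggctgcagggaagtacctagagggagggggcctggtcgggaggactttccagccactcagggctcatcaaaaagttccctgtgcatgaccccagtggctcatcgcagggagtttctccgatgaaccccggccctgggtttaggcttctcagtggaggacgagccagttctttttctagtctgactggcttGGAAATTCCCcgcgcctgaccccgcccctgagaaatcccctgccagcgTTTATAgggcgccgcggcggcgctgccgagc
Tnfaip3: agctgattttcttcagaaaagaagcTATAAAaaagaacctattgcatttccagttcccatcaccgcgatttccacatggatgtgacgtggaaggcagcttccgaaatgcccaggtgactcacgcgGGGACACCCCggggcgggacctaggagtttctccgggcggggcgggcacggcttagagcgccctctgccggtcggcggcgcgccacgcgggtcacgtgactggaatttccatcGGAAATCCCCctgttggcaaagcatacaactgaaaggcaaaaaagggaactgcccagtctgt
Icam1: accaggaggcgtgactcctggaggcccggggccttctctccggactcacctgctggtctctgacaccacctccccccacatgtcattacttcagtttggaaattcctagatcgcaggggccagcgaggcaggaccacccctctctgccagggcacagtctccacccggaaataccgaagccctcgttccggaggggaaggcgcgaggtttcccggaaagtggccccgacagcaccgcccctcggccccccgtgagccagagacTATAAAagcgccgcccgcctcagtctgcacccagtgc
Sele: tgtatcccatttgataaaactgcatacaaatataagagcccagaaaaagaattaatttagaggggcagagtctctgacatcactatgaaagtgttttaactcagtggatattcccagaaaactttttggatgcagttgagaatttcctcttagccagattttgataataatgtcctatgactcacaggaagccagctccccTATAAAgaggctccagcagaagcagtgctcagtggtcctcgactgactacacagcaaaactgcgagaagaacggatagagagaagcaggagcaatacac

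The Nfkbia window (chr12:55492598-55492897, minus strand) held 1 NF-kB match, on the reverse strand at -29 to -20 from the RefSeq start, and 1 reverse-strand TATA box at 20 to 25. The Tnfaip3 window (chr10:19015361-19015660, minus strand) held NF-kB matches at -125 to -116 and, on the reverse strand, at -12 to -3, and a TATA box at -225 to -220. The Tnfaip3 gene starts 247 bases upstream of that RefSeq start in the deposited table, so most of the printed stretch lies inside the gene as tabulated. The other Tnfaip3 window (chr10:19011914-19012213, minus strand), not printed, held neither motif. In Icam1 (chr9:21015690-21015989, plus strand) the TATA box lay at 14 to 19 after the RefSeq start, and the start in the table lies 45 bases downstream of the RefSeq start. In Sele (chr1:164047984-164048283, plus strand) the TATA box lay at -49 to -44. Of all 32851 promoter windows of this length, 4.51% held the NF-kB consensus and 13.6% the TATA box, against 2 and 4 of the 8 windows of these genes. These matches describe letters and were not measured as binding.

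Depth was even, at 16858130 to 20228619 reads per library as recovered from the table. Values are FPKM, fragments per kilobase of gene scaled to library size. All 12 endothelial markers were expressed. Pecam1 ranged from 207 to 291 FPKM, and the tight junction gene Cldn5, a copy of which the deletion removes, from 774 to 1386. Leukocyte markers were low. Ptprc, which encodes the CD45 used for exclusion, ranged from 0 to 0.0349 FPKM, and of 10 lymphocyte and neutrophil markers, Cd3d, Nkg7, S100a8, Ly6g and Retnlg were at 0 in all 6 libraries. The 14 microglia and macrophage markers summed to 31.9 to 42.2 FPKM in untreated and 25.7 to 37.3 in bezafibrate libraries. Pdgfrb, whose product was also gated out, was measured at 6.29 to 12.2 FPKM, and the 7 pericyte markers, Pdgfrb among them, summed to 189 to 341 and 188 to 264 FPKM, Rgs5 (88.5 to 164) being the highest. Astrocyte markers (7 genes) summed to 39.4 to 58.4 and 25.2 to 47.3 FPKM, and oligodendrocyte markers (7 genes) to 92.9 to 151 and 89.6 to 102. Erythrocyte markers (5 genes) summed to 45.4 to 298 and 51.4 to 149 FPKM, untreated F_1 being the highest. A first principal component was taken over genes with at least 1 FPKM in at least 3 libraries (39.3% of variance). Untreated M_1 and bezafibrate F_1 had its highest scores, 30.3 and 24.4, against -22.6 to 1.62 in the other 4. Both are called outlying below, though bezafibrate M_2, at -22.6, lay nearly as far from 0 on the other side.

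The levels of these genes spanned a wide range. Nfkbia, the inhibitor of NF-kB, was the highest in every library, at 415 to 687 FPKM, and ranked above 99.4% to 99.6% of the 11277 genes tested. Icam2, the constitutive integrin ligand of resting endothelium, came second in every library (80.4 to 116 FPKM). Tnfrsf1a and Icam1 followed with overlapping ranges, Tnfrsf1a being higher in 4 of 6 libraries, so that their order does not stand out from their spread. Icam1, an inducible adhesion gene, was not sparse here by RNA, ranking above 68.8% to 88.4% of the genes tested. Tnfaip3 lay below Icam1 in all 6 libraries and above Vcam1 in 5. Ackr1 came next, then Sele and Ccl2, which changed places in 1 library, and Selp was lowest throughout, at 0.0362 to 0.537 FPKM. The coefficient of variation in untreated libraries was highest for Selp (98.3%), Sele (54.0%), Vcam1 (41.9%) and Ccl2 (40.2%), against 6.48% for Nfkbia and 10.1% for Icam2. In bezafibrate libraries it was highest for Selp (82.4%), Ccl2 (68.5%), Icam1 (60.5%) and Sele (49.7%), against 22.0% for Nfkbia and 16.8% for Icam2.

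**Figure D1:**
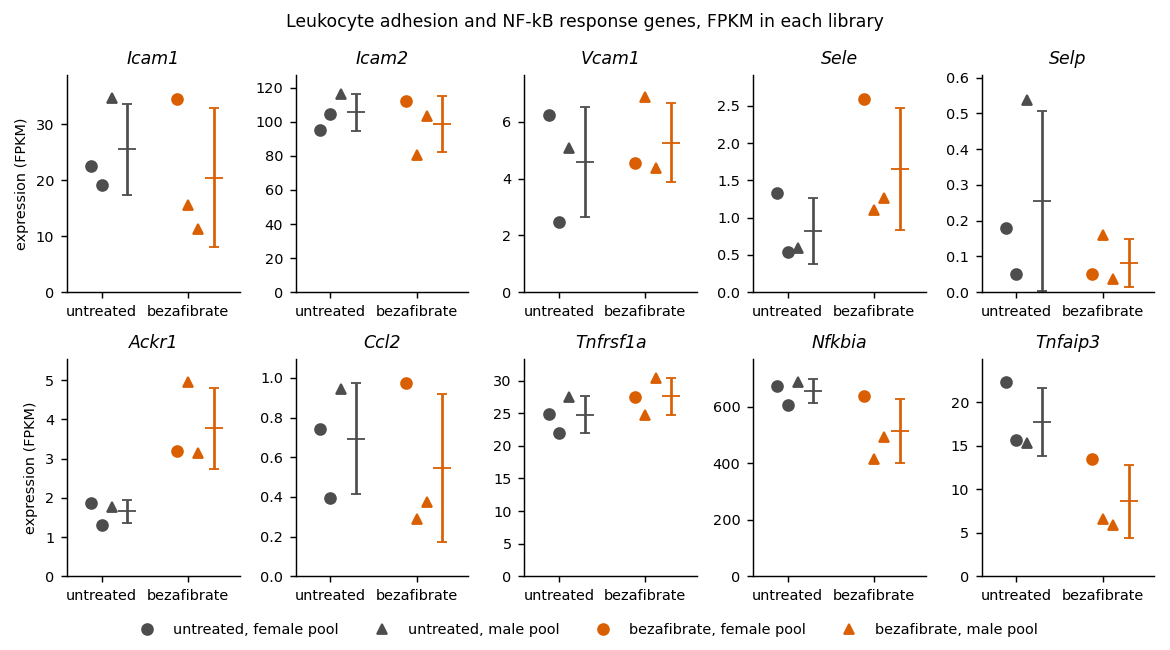
Expression (FPKM, linear axis from 0, with its own scale per gene) of the 10 genes in each library; circles are female and triangles male pools, and the bar beside the points is the mean with its SD (n = 3). The groups separate for Ackr1 and Tnfaip3 and overlap for the other 8 genes, where 8.42% of all genes tested do not overlap. Selp and Ccl2, among these 8, did not meet the filter for testing.

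None of the 10 genes was called with bezafibrate. With limma on log2(FPKM + 1), 8 of the 10 met the filter of at least 1 FPKM in at least 3 libraries, and 0 of these 8 had an adjusted p under 0.05 (smallest limma adjusted p = 0.962), where 0.00887% of all 11277 genes tested were called (Gm27616 alone, a gene named here after its value was seen). At an unadjusted limma p under 0.05 there were 2 of the 8, Ackr1 and Tnfaip3, against 4.19% of all genes. Limma-voom on recovered reads also called 0 of the 8. The same 2 genes were those whose groups did not overlap, Ackr1 higher and Tnfaip3 lower with bezafibrate, where 8.42% of all genes tested did not overlap (4.29% higher, 4.13% lower). The 8 log2 differences were split evenly, 4 above and 4 below 0, with a median of 0.02, beside -0.0091 over all genes tested. Sele met the filter through all 3 bezafibrate libraries and 1 untreated library. In bulk RNA, a change in the number of cells of a kind and a change in RNA per cell cannot be told apart.

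**Figure D2:**
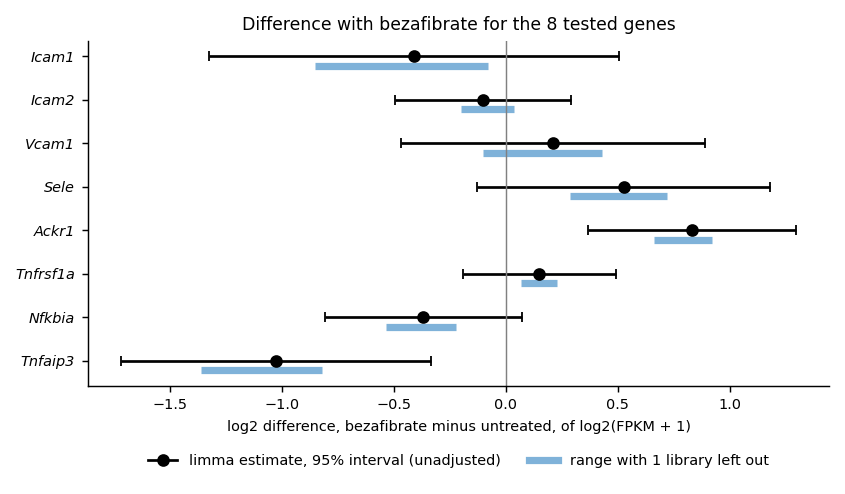
Log2 difference (bezafibrate minus untreated, on log2(FPKM + 1)) of the 8 tested genes, with the unadjusted 95% interval from limma (black) and the range when any 1 library is left out (blue). The intervals of Ackr1 (0.37 to 1.29) and Tnfaip3 (-1.72 to -0.34) lie to one side of 0 before adjustment over all genes.

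Among the selectins, Sele (ENSMUSG00000026582, chromosome 1, 164048234 to 164057677), the E-selectin that cytokines induce on endothelium, had 1.33, 0.540 and 0.592 FPKM in the untreated libraries and 2.59, 1.10 and 1.26 in the bezafibrate libraries. Bezafibrate F_1 was the highest and untreated F_1 lay within the bezafibrate range, so the groups overlap. These values rest on 28 to 136 reads. The log2 difference was 0.53 (SE 0.280, limma adjusted p = 0.999), and it was 0.28 without bezafibrate F_1 and 0.20 without both outlying libraries. Because the pseudocount of 1 is close to these levels, the same comparison was 0.99 by limma-voom on reads (adjusted p = 0.998). Leaving out both outlying libraries keeps only female untreated and male bezafibrate pools. That fit cannot tell treatment from sex, here or for the genes below.

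Selp (ENSMUSG00000026580, chromosome 1, 164115264 to 164150026), the P-selectin stored in endothelial granules and in platelets, did not meet the filter, since no library reached 1 FPKM. It had 16, 4 and 44 reads in the untreated libraries (0.180, 0.0509 and 0.537 FPKM) and 4, 15 and 3 reads in the bezafibrate libraries (0.0504, 0.160 and 0.0362 FPKM). Untreated M_1 was far above the rest, the next being untreated F_1 with an exact Poisson interval of 9.15 to 26.0 reads, and the groups overlap. An exact permutation test gave p = 0.2 (two-sided, n = 3 each), where 0.1 is the smallest p this design allows, and limma with no filter on low values gave a log2 difference of -0.20 (adjusted p = 0.929). The 5 platelet markers summed to 0.350 to 0.527 FPKM in untreated and 0.316 to 1.89 in bezafibrate libraries, with Ppbp and Gp1bb at 0 throughout, and their part in Selp was not tested. Of Selp exon bases, 9.93% and 4.21% are shared with the opposite-strand genes Gm16548 and Gm16587, and whether counting used strand was not stated in the labels.

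Ackr1 (ENSMUSG00000037872, chromosome 1, 173331886 to 173333750) encodes the atypical chemokine receptor of venular endothelium, which binds chemokines without signalling through G proteins and carries them across the vessel wall. It had 1.88, 1.32 and 1.76 FPKM in the untreated libraries and 3.20, 4.95 and 3.14 in the bezafibrate libraries. The lowest bezafibrate library lay above the highest untreated library, and bezafibrate M_1 was the highest of all. The means were 1.65 ± 0.295 and 3.77 ± 1.03 (SD, n = 3 each), a ratio of 2.28. The log2 difference was 0.83 (SE 0.199), higher in 3 of 3 bezafibrate libraries than in any untreated one, and ranked 35 of 11277 by p (limma unadjusted p = 0.00345), but it did not pass adjustment (limma adjusted p = 0.962). With a library left out it ran from 0.66 (without bezafibrate M_1) to 0.92, and it was 0.94 without both outlying libraries and 1.18 by limma-voom.

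Of Ackr1 exon bases, 25.7% (361 of 1405) belong also to Cadm3, a cell adhesion gene on the same strand, and reads there cannot be assigned by position. Ackr1 had 53, 33 and 46 reads in the untreated libraries and 81, 148 and 83 in the bezafibrate libraries. Cadm3 had 63, 63 and 60 reads in the same untreated and 39, 63 and 58 in the same bezafibrate libraries. How reads of the shared bases were divided between these genes is not known, and their part in the Ackr1 values was not tested. Of 8 other markers of venous endothelium, 6 had a difference above 0 and 2 below, with a median of 0.09, and 0 were called. Summed levels were 351 to 390 FPKM in untreated and 354 to 392 in bezafibrate libraries. The 6 choroid plexus markers, from a tissue with its own vessels, all had a difference above 0, with 0 called. Of these markers, 2 were higher without overlap, where 4.29% of all genes tested were. The 6 markers summed to 359 to 399 FPKM in untreated and 406, 553 and 938 in the bezafibrate libraries. Nearly all of that sum was Ttr, at 389, 349 and 375 FPKM in untreated and 397, 540 and 919 in bezafibrate libraries. The part of choroid plexus in the Ackr1 values was not tested.

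**Figure D3:**
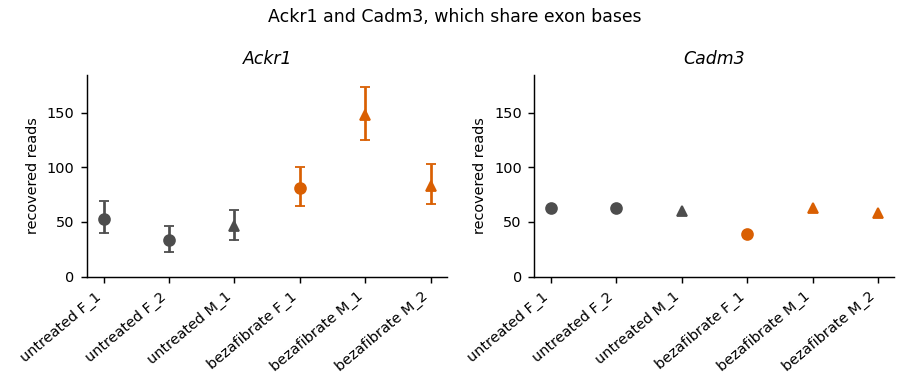
Recovered reads of Ackr1 (with exact 95% Poisson intervals, counting error only) and of Cadm3 in each library; grey is untreated and orange bezafibrate, circles female and triangles male pools. Ackr1 has 33 to 53 reads in untreated and 81 to 148 in bezafibrate libraries, and Cadm3 has 60 to 63 and 39 to 63.

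Icam1 (ENSMUSG00000037405, chromosome 9, 21015985 to 21028817), the inducible ligand of leukocyte beta-2 integrins, had 22.6, 19.2 and 34.6 FPKM in the untreated libraries and 34.5, 15.6 and 11.2 in the bezafibrate libraries. The highest values were those of the outlying libraries, untreated M_1 and bezafibrate F_1, and the groups overlap. The highest library was 3.09 times the lowest, a spread that 13.3% of all genes tested matched or exceeded. The log2 difference was -0.41 (SE 0.394, limma adjusted p = 0.999). It was -0.85 without bezafibrate F_1, -0.08 without bezafibrate M_2 and -0.61 without both outlying libraries (adjusted p = 0.447). With the composition ratio (summed reads over the library size used for scaling) as a covariate it changed sign, to 0.07. Of Icam1 exon bases, 11.7% are shared with the antisense gene Gm47079.

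Icam2 (ENSMUSG00000001029, chromosome 11, 106377656 to 106388075) had 95.3, 105 and 116 FPKM in the untreated libraries and 112, 80.4 and 104 in the bezafibrate libraries. Bezafibrate M_1 was the lowest and the groups overlap. Its log2 difference of -0.10 (SE 0.169) changed sign after rescaling to TPM (0.01, where the median of all genes tested also moved up by 0.11), under quantile scaling (0.02), with the composition ratio as covariate (0.04) and without bezafibrate M_1 (0.04). The interval, -0.50 to 0.29, leaves room for a change in either direction.

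Vcam1 (ENSMUSG00000027962, chromosome 3, 116109949 to 116129688), the ligand of the integrin VLA-4 on lymphocytes and monocytes, had 6.22, 2.47 and 5.06 FPKM in the untreated libraries and 4.56, 6.87 and 4.37 in the bezafibrate libraries. Untreated F_2 was the lowest library and bezafibrate M_1 the highest, with the groups overlapping. The log2 difference was 0.21 (SE 0.292, interval -0.47 to 0.89) and was -0.10 without untreated F_2, 0.03 without bezafibrate M_1, 0.43 without untreated F_1, 0.63 with array weights (adjusted p = 0.524) and 0.0006 under the replicate block. Icam1 and Vcam1, though both are NF-kB targets, did not vary together over the libraries (Pearson r = 0.03 over 6 libraries, as a description).

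Ccl2 (ENSMUSG00000035385, chromosome 11, 82035571 to 82037453), the chemokine that attracts monocytes, did not meet the filter, since no library reached 1 FPKM. It had 17, 8 and 20 reads in the untreated libraries (0.743, 0.395 and 0.946 FPKM) and 20, 7 and 8 in the bezafibrate libraries (0.976, 0.289 and 0.374 FPKM). The highest libraries were again untreated M_1 and bezafibrate F_1, and the intervals on the reads of these 2 libraries (12.2 to 30.9 each) overlap those of the lowest library (2.81 to 14.4). An exact permutation test gave p = 0.7 (two-sided, n = 3 each), and limma with no filter on low values gave a log2 difference of -0.14 (adjusted p = 0.940).

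Tnfrsf1a (ENSMUSG00000030341, chromosome 6, 125349362 to 125362484), the main receptor through which TNF reaches NF-kB, was the steadiest of the 10 genes across all libraries. It had 24.9, 21.9 and 27.6 FPKM in the untreated libraries and 27.5, 24.8 and 30.5 in the bezafibrate libraries. The groups overlap, and the highest library was 1.39 times the lowest, below the median of 1.71 over all genes tested. The log2 difference was 0.15 (SE 0.147, interval -0.19 to 0.49, limma adjusted p = 0.999). It was 0.07 without untreated F_2, 0.08 without bezafibrate M_2 and 0.23 without untreated M_1, and 0.27 after rescaling to TPM.

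Nfkbia (ENSMUSG00000021025, chromosome 12, 55489410 to 55492647), whose promoter holds the NF-kB match shown above, had 675, 608 and 687 FPKM in the untreated libraries and 639, 415 and 493 in the bezafibrate libraries. The low libraries were the male bezafibrate pools, and bezafibrate F_1 lay within the untreated range. The means were 657 ± 42.6 and 516 ± 114 FPKM (SD, n = 3 each), and the log2 difference was -0.37 (SE 0.189, interval -0.81 to 0.07, limma adjusted p = 0.999). It was -0.22 without bezafibrate M_1, -0.53 without bezafibrate F_1 and -0.50 without both outlying libraries. After rescaling to TPM it was -0.25, and under quantile scaling -0.18.

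Tnfaip3 (ENSMUSG00000019850, chromosome 10, 19000910 to 19015657) encodes A20, a ubiquitin-editing enzyme that ends TNF signalling. Its printed promoter window holds the pair of NF-kB matches shown above, and its other window holds none. It had 22.3, 15.6 and 15.3 FPKM in the untreated libraries and 13.4, 6.58 and 5.83 in the bezafibrate libraries. Each bezafibrate library lay below each untreated one, the male bezafibrate pools by the most. The means were 17.7 ± 3.93 and 8.61 ± 4.18 FPKM (SD, n = 3 each), a ratio of 0.486. The log2 difference was -1.03 (SE 0.297), and ranked 100 of 11277 by p (limma unadjusted p = 0.00927), but it did not pass adjustment (limma adjusted p = 0.999). With a library left out it ran from -1.36 (without bezafibrate F_1) to -0.82. Without both outlying libraries it was -1.45 (limma adjusted p = 0.125), the lowest adjusted p of Tnfaip3 among its 18 alternative fits. That fit sets female untreated against male bezafibrate pools only, so it cannot tell treatment from sex.

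Nfkbia and Tnfaip3 varied together over the 6 libraries (Pearson r = 0.89, as a description, the points sharing the libraries and their treatment), and Icam1 varied with Ccl2 (r = 0.91) and with Nfkbia (r = 0.76). Ackr1 had a negative r with both feedback inhibitors (-0.79 with Nfkbia and -0.77 with Tnfaip3). Because Ackr1 and Tnfaip3 separate the treatment groups in opposite directions, a negative r between them is largely given by that separation. Icam1 also followed the library score on the first principal component (r = 0.91) and the composition ratio (r = 0.88). For Nfkbia these were 0.68 and 0.80, for Tnfaip3 0.48 and 0.63, and for Ackr1 -0.37 and -0.59. The part of this library axis in the values of Icam1, Ccl2, Icam2 and Nfkbia (r = 0.91, 0.80, 0.77 and 0.68 with the score) was not tested.

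**Figure D4:**
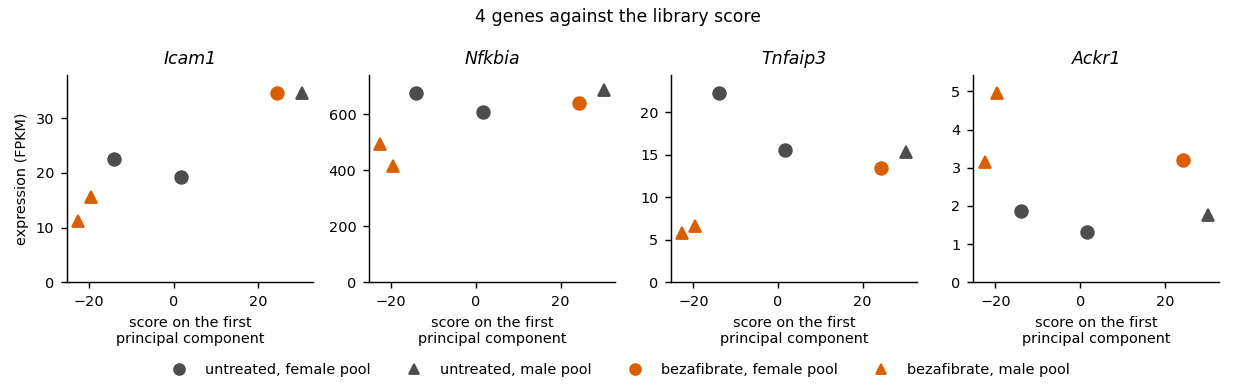
Expression (FPKM, linear axis from 0) of Icam1, Nfkbia, Tnfaip3 and Ackr1 against each library's score on the first principal component. The component was taken over genes with at least 1 FPKM in at least 3 libraries. Grey is untreated and orange bezafibrate, circles female and triangles male pools. Icam1 is highest in the 2 libraries with the highest scores, 1 from each group, whereas Tnfaip3 and Ackr1 separate the groups.

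The genes around these 10 in the pathway showed no call either. Those named for each list had the 2 lowest and the 2 highest moderated limma statistics, which weigh a difference by its error. Of 34 genes of the NF-kB machinery and its feedback, 32 were tested, 17 above and 15 below 0, with a median of 0.03, and 0 were called in either direction. Rel, the c-Rel subunit of NF-kB, had 4.47, 4.16 and 2.87 FPKM in the untreated libraries and 2.41, 1.90 and 1.84 in the bezafibrate libraries, with no overlap and a log2 difference of -0.65 (SE 0.186, limma adjusted p = 0.994). Nfkbiz, an inducible nuclear member of the IkB family, had a difference of -0.34. On the other side, the adaptor Myd88 of Toll-like and interleukin-1 receptors had 0.37, with groups that did not overlap, and Irak3, a brake on that route, 0.39. Of 14 cytokine and Toll-like receptors upstream, 10 were tested, 4 above and 6 below 0 (median -0.03), and 0 were called. The lowest statistics there were those of Cd14, the lipopolysaccharide co-receptor (-0.61), and the TNF receptor family member Cd40 (-0.16), and the highest those of Il1r1, the interleukin-1 receptor (0.37), and Il17ra, a receptor of interleukin-17 (0.20).

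Of 27 further genes of leukocyte adhesion and transmigration, 21 were tested, 6 above and 15 below 0 (median -0.11), and 0 were called. Chst2, a sulfotransferase that completes selectin ligands, had 6.25 ± 0.319 and 4.73 ± 0.881 FPKM (SD, n = 3 each), and the sialomucin Emcn 98.7 ± 2.66 and 86.0 ± 4.16, both without overlap. The highest statistics were those of the adhesion molecule Alcam (0.19) and the glycosyltransferase Gcnt1 (0.36). Of 27 chemokines and cytokines, Ccl19 names several gene IDs and was left out, and 13 were tested, 3 above and 10 below 0 (median -0.14), with 0 called. Tnf, the ligand of Tnfrsf1a, had 3.52, 2.67 and 2.60 FPKM in the untreated libraries and 2.17, 0.889 and 0.584 in the bezafibrate libraries, without overlap, at a log2 difference of -0.88 (SE 0.275, limma adjusted p = 0.999). The neutrophil chemokine Cxcl2 had -1.08 (SE 0.412) with overlapping groups. The highest statistics were those of Il34 (0.43) and Csf1 (0.25), both ligands of the CSF1 receptor.

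Immediate early and dissociation-induced genes, a class that also answers to tissue digestion, were measured in the same libraries. All 30 were tested, with 1 above and 29 below 0, a median of -0.27 beside -0.0091 over all genes, and 0 called. The groups did not overlap in 10 of 30, each lower with bezafibrate (4.13% of all genes tested). Fosl2, an AP-1 subunit, had -1.01 and the nuclear receptor Nr4a1 -0.89, whereas Jun stood at 0.0049 and Jund at -0.02. Differences below 0 were also the more frequent in markers of several cell types: 7 of 7 for oligodendrocytes (median -0.39, 2 without overlap), 7 of 7 for astrocytes (median -0.26), 6 of 7 for pericytes (median -0.25) and 11 of 12 for endothelium (median -0.17), with 0 called in each. The part of these lists in the lower values of Tnfaip3, Nfkbia and Tnf was not tested.

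**Figure D5:**
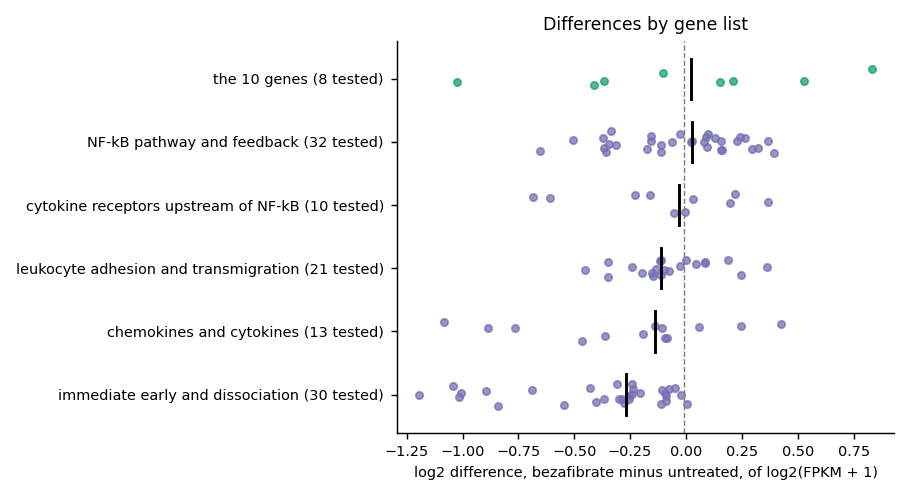
Log2 differences (bezafibrate minus untreated, on log2(FPKM + 1)) of the tested genes of each list, each point a gene (spread vertically at random); the black line is the list's median and the dashed line the median over all 11277 genes tested. The 10 genes of the report (8 tested) spread around a median of 0.02, and the immediate early list has a median of -0.27.

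Between the sexes, with treatment as a covariate, 0 of the 8 tested genes were called (smallest limma adjusted p = 0.9999), where 0.0266% of all genes tested were called (the sex-linked genes Ddx3y, Eif2s3y and Xist). Tnfaip3 had the largest difference, -0.64 (SE 0.233, male minus female, limma unadjusted p = 0.0317, where 2.94% of all genes lay under 0.05), with mean levels of 17.1 FPKM in the 3 female and 9.23 in the 3 male pools. The bezafibrate group held 2 of the 3 male pools and the untreated group 2 of the 3 female pools. With sex as a covariate the log2 difference of Tnfaip3 with bezafibrate was -0.81 (limma adjusted p = 0.9998), and that of Ackr1 0.77 (limma adjusted p = 0.9998). In the treatment by sex interaction 0 of the 8 tested genes were called, beside 0.665% of all genes tested. Female and male libraries moved in opposite directions without overlap in Icam1, Icam2 and Ccl2, 3 of the 10 genes, as did 41.6% of all genes tested.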

How the data were processed

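RNA-seq libraries of sorted brain endothelial cells, 3 per group, were read from a gene table of FPKM that the authors deposited. Per the labels' protocols, cDNA came from SMART-Seq HT, libraries from Nextera XT, reads were single-end of 75 bases, de-duplicated and mapped to the transcriptome with Salmon. GRCm38 is the build per the submitters' processing notes; annotation, strand use and FPKM scaling: not given in the sources used here. For untreated M_1, the column is numbered differently from its title and was matched by its description. All 10 genes had the same start and end in the GENCODE annotation of GRCm38 (release M21), from which shared exon bases were counted. FPKM times gene length fell on whole reads for 100% of values (tolerance 0.01 reads).

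Genes with at least 1 FPKM in at least 3 libraries (11277) were fitted with limma 3.58.1 in R 4.3.3 on log2(FPKM + 1), with a trend, two-sided, and Benjamini-Hochberg adjustment over all genes; called means an adjusted p below 0.05. The pseudocount shrinks differences of low genes. The code was tested on simulated data. Named genes were all 10 genes and, per pathway list, the 2 highest and the 2 lowest moderated statistics. The genes, lists and alternatives were chosen with earlier results of these data known. P-values measure the spread between pools; intervals on reads cover counting error only, and reads without molecular identifiers are not independent molecules.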

Additional observations from a re-analysis of the deposited data

Results flagged for a closer look

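Female and male libraries moved in opposite directions in 3 of the 10 genes, which 41.6% of all 11277 genes tested also did. Icam1 had a log2 difference with bezafibrate of 0.70 in female and -1.32 in male libraries, and the test of this difference between the sexes gave -2.03 (SE 0.342, limma adjusted p = 0.0576), where 0.665% of all genes tested were called. Icam2 had 0.17 in female and -0.35 in male libraries (interaction -0.52, limma adjusted p = 0.382). Ccl2, below the filter, had 0.34 and -0.55, and its difference between the sexes was not tested. The female comparison rests on bezafibrate F_1 alone and the male comparison on untreated M_1 alone, the outlying libraries on the first principal component, so that sex and library cannot be told apart. Only 2 residual degrees of freedom remain in that fit.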

How the results depend on the processing

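Across 17 or 18 alternative fits each, 0 of the 8 tested genes were called, the smallest adjusted p being 0.125 (Tnfaip3). That value came without both outlying libraries, where only female untreated and male bezafibrate pools remain and treatment cannot be told from sex. Ackr1, Sele, Nfkbia and Tnfaip3 kept their sign in every one of the alternative fits. The sign of Icam1 changed with the composition ratio as a covariate (0.068). That of Icam2 changed after rescaling to TPM (0.014), under quantile scaling (0.020), with the composition ratio (0.040) and without bezafibrate M_1 (0.037; range with 1 library left out -0.20 to 0.037), that of Vcam1 without untreated F_2 (-0.10; range -0.10 to 0.43), and that of Tnfrsf1a under the replicate block (-0.0047); the cause was not tested. Over all genes, 1 gene was called as reported, 2 without the trend, 0 under the replicate block, 0 by limma-voom, 0 without both outlying libraries (untreated M_1 and bezafibrate F_1), and 0 to 3 with 1 library left out (3 without bezafibrate F_1, 0 without bezafibrate M_1 or M_2). For sex, 3 genes were called as reported and 1 to 4 with 1 library left out. The replicate block joins libraries that share a name (F_1 and M_1) and leaves untreated F_2 and bezafibrate M_2 out of the contrast. Nothing in the labels pairs them, and their deviations from the group means correlated at -0.36 and -0.30 over genes. Below 1 FPKM, at 3 to 44 reads, depth limits what can be seen for Selp and Ccl2.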

Other observations

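The genes whose pattern over the 6 libraries was most like that of Icam1 were Thbd, which encodes the anticoagulant receptor thrombomodulin of endothelium, Rapgef5 and Camta1, each with a Pearson r of 0.99. Of the 11277 genes tested, 346 (3.07%) had an r over 0.9 with Icam1. For Vcam1 the nearest were Gpr161 (r = 0.99), Bmp6, a bone morphogenetic protein (0.99), and 1700052K11Rik (0.98), and 40 genes (0.355%) had an r over 0.9. These values describe 6 libraries that differ in treatment, sex and composition.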
